A study of Homo sapiens with 20 samples.

Results

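Messenger RNA of 10 chromatin regulators that act as tumour suppressors was examined across 20 established cell lines of human biliary tract cancer. The genes were ARID1A, ARID1B, ARID2, PBRM1, SMARCA2, SMARCA4, SMARCB1, BAP1, KMT2C and KDM6A, taken as a list of symbols and found through the RefSeq identifier of each entry. All 10 were present among the 24222 entries of the deposited count table, and all 10 passed the low-count filter of every comparison.

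Each line contributed 1 poly(A)-selected RNA sequencing library, so a line is the replicate and every p-value measures the spread between lines. All lines were untreated and grew in the same serum-containing Dulbecco's medium. The 4 intrahepatic bile duct lines were HuCCT1, HuH28, SNU-1079 and TKKK, the 5 extrahepatic lines EGI-1, Sk-ChA-1, SNU-1196, SNU-245 and TFK-1, the 3 ampullary lines SNU-478, SNU-869 and TGBC18TKB, and the 7 gallbladder lines SNU-308, TGBC14TKB, TGBC2TKB, G415, OCUG-1, NOZ and Mz-ChA-2. OZ carries the labels of both the intrahepatic and the extrahepatic duct and entered no comparison of sites. Metastatic origin was given for 7 lines, 6 of them from ascites (G415, HuCCT1, NOZ, OCUG-1, OZ and Sk-ChA-1) and 1 from a liver metastasis (Mz-ChA-2), and primary tumour for the other 13. A line stands for a single tumour, and no normal bile duct sample was analysed here.

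ATP-dependent remodelling complexes of the SWI/SNF family slide or evict nucleosomes and so open promoters and enhancers. SMARCA4 and SMARCA2 are alternative ATPases of these complexes and SMARCB1 is a core subunit. ARID1A and ARID1B are alternative subunits of the BAF form, and ARID2 and PBRM1 belong to the PBAF form. BAP1 is a nuclear deubiquitinase that removes ubiquitin from histone H2A. KMT2C is a histone methyltransferase that acts at enhancers, and KDM6A, a demethylase that removes the Polycomb mark from histone H3, sits in the same type of complex. Inactivating mutations of several of these genes, among them ARID1A, PBRM1 and BAP1, recur in bile duct cancers.

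Total counts per line ran from 10.47 M (SNU-245) to 15.41 M (TFK-1), with M for mega. Levels are given as counts per M (CPM) with TMM-scaled library sizes, a between-library normalisation. A count of 0 allows up to 3 counts, equal to 0.205 to 0.294 CPM, and intervals are exact Poisson 95% intervals. Both cover counting error only. Of the biliary markers, KRT7 had a median of 726.2 CPM, KRT19 of 1437 CPM, SOX9 of 128.6 CPM and EPCAM of 408.5 CPM. EPCAM was at 0.257 CPM and KRT19 at 1.03 CPM in HuH28, and KRT7 was at 0.233 CPM in Mz-ChA-2. Of the leukocyte genes PTPRC, CD3E, CD68 and LYZ, 3 of 4 reached 1 CPM in some line, and their sum ran from 12.1 CPM in TGBC14TKB to 3103 CPM in SNU-245, where LYZ made up 3029 CPM. CD3E did not pass 0.248 CPM and PTPRC did not pass 1.32 CPM in any line. The endothelial genes PECAM1, VWF and CDH5 summed to 0 to 21.1 CPM. In a bulk library, fewer cells with a transcript and less transcript per cell cannot be told apart.

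As a set the 10 genes varied over the lines about as much as genes in general. Only ARID1A, ARID1B and SMARCB1 were unusually even, with spreads at percentiles 5.7, 7.4 and 1.8 of all genes with a median of at least 5 CPM. Levels at least 1 log2 unit below the median came from 1 to 3 lines of a few genes. The standard deviation of log2(CPM + 0.5) over the 20 lines had a median of 0.63 over the 10 genes, against 0.70 over the 11548 genes with a median of at least 5 CPM, and 7 of the 10 lay below 0.70. A line was called far below the median when its log2(CPM + 0.5) was lower than that of the median line by at least 2, and by over 3 median absolute deviations after scaling. By that rule 2 of the 10 genes had such a line, ARID2 in SNU-308 and BAP1 in TFK-1. Over all 11548 genes, 13% had such a line, so the count of 2 stands near the background. The rule at 1 log2 unit added PBRM1 in TFK-1, SNU-1079 and TGBC18TKB, giving 3 of 10 genes, against 19.8% of all genes. BAP1 in TFK-1 lay just inside the main rule at -2.07 and PBRM1 in TFK-1 just outside it at -1.79. ARID2 in Sk-ChA-1 at -1.27 and KMT2C in OZ at -1.06 passed 1 log2 unit but not the criterion on spread.

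**Figure D1:**
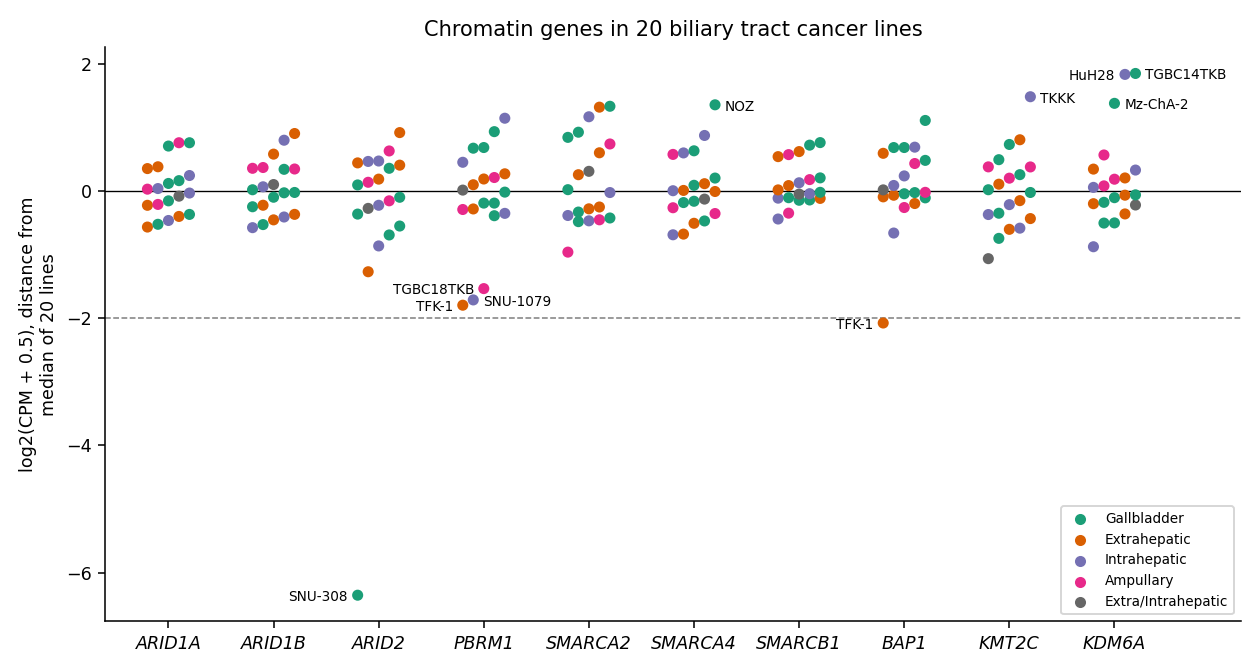
Distance of each line from the median of the 20 lines in log2(CPM + 0.5), 1 column of points per gene and 1 point per line, coloured by labelled site; the dashed line marks 2 log2 units below the median. ARID2 in SNU-308 lies 6.35 below the median and BAP1 in TFK-1 2.07 below, while ARID1A, ARID1B and SMARCB1 stay within 1 unit in every line.

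ARID1A, the most frequently mutated SWI/SNF subunit in human cancer, was expressed in every line. Its lowest level was 78.2 CPM in Sk-ChA-1, its median 115.9 CPM and its highest 196.7 CPM, reached in both Mz-ChA-2 and SNU-869. The range was 2.52-fold, and its standard deviation of 0.41 was at percentile 5.7 of all genes with a median of at least 5 CPM. ARID1B, its paralogue in the complex, ran from 44.2 CPM in TKKK over a median of 66.1 CPM to 124.2 CPM in TFK-1. No line had a low level of either gene.

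Per kilobase of transcript, ARID1B was lower than ARID1A in most lines. This scaling permits only a rough comparison of levels between genes, because the transcript lengths used may differ from the gene models that were counted. ARID1B had a median of 6.86 CPM per kb and ARID1A a median of 13.5 CPM per kb. The ratio of ARID1B to ARID1A was 0.29 in Mz-ChA-2, 0.53 at the median and 1.22 in HuH28. Over the 20 lines the paralogues' log2 levels had r = 0.14 and rho = 0.17, and r = 0.10 without the pair of lines farthest from the median of ARID1A. A line with less ARID1A did not as a rule have more ARID1B.

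ARID2, the PBAF subunit that binds DNA through its AT-rich interaction domain, had 0 counts in the gallbladder line SNU-308. With the 3-count floor of 0.205 CPM, ARID2 in SNU-308 was at least 80.2-fold lower than in the lowest other line, Sk-ChA-1 with 16.5 CPM. The median of the other 19 lines was 43.2 CPM, and ARID2 in SNU-308 was at least 210-fold lower than that median. The highest line was TFK-1 with 76.9 CPM. SNU-308 held 13.97 M counts. Of 8448 genes with a median of at least 20 CPM, 191 (2.26%) had 0 counts in some line, and 7 had 0 counts in SNU-308. All 7 were at 0 in SNU-308 alone, and 3 of them, ARID2, IRAK4 and TWF1, lie near each other on chromosome 12. The standard deviation of ARID2 was 1.52 over the 20 lines and 0.56 without SNU-308.

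The genes next to ARID2 on 1 side were missing from SNU-308 as well. In RefSeq order the consecutive measured genes PRICKLE1, PUS7L, IRAK4, TWF1, TMEM117, PLEKHA8P1, ANO6, LINC00938 and ARID2 numbered 9, and SNU-308 was the lowest of the 20 lines for all 9, for TMEM117 jointly with at least 1 other line at 0. IRAK4, a kinase of Toll-like receptor signalling, had 0 counts in SNU-308 against a median of 21.9 CPM over the lines. TWF1, the actin-binding protein twinfilin, had 0 counts in SNU-308 against a median of 107.4 CPM. ANO6, a phospholipid scramblase, had 3 counts or 0.205 CPM in SNU-308 against a median of 117.7 CPM. PRICKLE1, TMEM117 and LINC00938 also had 0 counts and PUS7L had 1. The exception was PLEKHA8P1, a pseudogene whose reads can be shared with PLEKHA8, with 59 counts or 42.3% of its median. The other 8 genes together had 4 counts in SNU-308, against 3049 counts in OZ, the lowest of the other lines, and 8828 in the highest.

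Both flanks of this run were expressed in SNU-308. On the ARID2 side the next measured gene, SCAF11, had 206.8 CPM in SNU-308 against a median of 145.1 CPM, the highest of the 20 lines. The glutamine transporters SLC38A1 and SLC38A2, which come next, stood at 124.5% and 217.4% of their medians. At the other end PPHLN1 had 46.9 CPM in SNU-308 against a median of 59.8 CPM, and ZCRB1 stood at 142.6% of its median. The 50 nearest measured genes of ARID2 had a median ratio of 1.08 to their own medians in SNU-308. The run without signal therefore ended at PRICKLE1 on one side and at ARID2 on the other. LINC00938 lies beside ARID2 and the strand setting of the counting is not given, so reads of overlapping genes could be shared, which makes no difference where both are at 0.

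**Figure D2:**
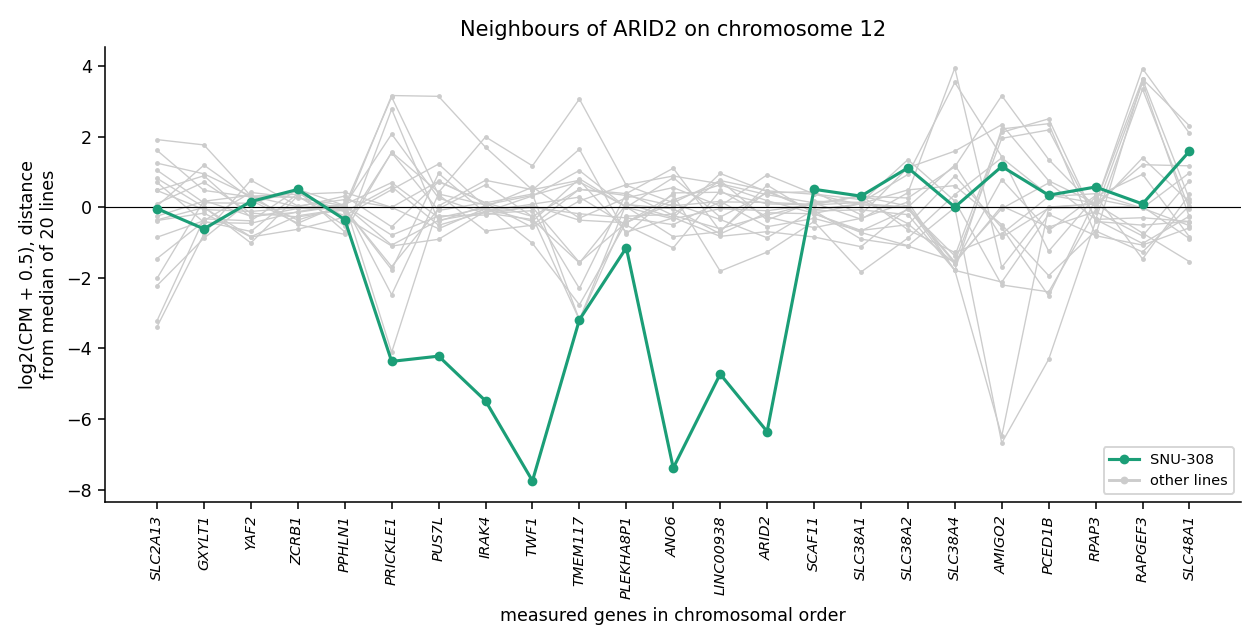
Distance from the median of the 20 lines in log2(CPM + 0.5) for ARID2 and the measured genes on either side in their order on chromosome 12, with SNU-308 drawn against the other lines. A run from PRICKLE1 to ARID2 is at or near 0 counts in SNU-308 apart from PLEKHA8P1, and the genes outside it, PPHLN1 and SCAF11 among them, lie within the range of the other lines or just above it.

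Other PBAF subunits were present in SNU-308. PBRM1 had 90.8 CPM in SNU-308, 161.3% of its median. BRD7, a bromodomain subunit of PBAF, had 68.1 CPM in SNU-308 against a median of 39.3 CPM, the highest of the 20 lines. PHF10, a PBAF subunit with plant homeodomain fingers, had 36.2 CPM in SNU-308 against a median of 36.3 CPM. BAP1 was also highest in SNU-308, with 159.8 CPM and an interval of 153.4 to 166.4 CPM against a median of 73.7 CPM, and its 50 nearest measured genes stood at a median ratio of 1.43 there. Of 50 partner genes of the 10 regulators with a median of at least 5 CPM, 46 lay within 1 log2 unit of their medians in SNU-308. SS18L1 and ASXL1 lay lower and BCL7A and SS18 higher. The same share over all genes is not given here, so this count does not set the partners apart from other genes.

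PBRM1, the bromodomain subunit of PBAF, had the largest spread among the 10 genes after ARID2, with a standard deviation of 0.80 at percentile 60.7 of all genes. Its lowest level was 15.9 CPM in TFK-1, its median 56.3 CPM and its highest 125.1 CPM in HuH28. The 3 lowest lines came from 3 different sites. TFK-1 had 224 counts and an interval of 13.8 to 18.1 CPM, SNU-1079 had 205 counts and 16.8 CPM with an interval of 14.6 to 19.3 CPM, and TGBC18TKB had 212 counts and 19.1 CPM with an interval of 16.6 to 21.9 CPM. These intervals overlap, and the next line up, TGBC2TKB, had 42.9 CPM. TFK-1, SNU-1079 and TGBC18TKB thus stood at 28.2%, 29.9% and 34.0% of the median, but none passed the distance of 2 log2 units.

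The 250 bases upstream of 1 of the 2 annotated starts of PBRM1, the outer one, are shown because this gene was low in more lines than any other of the 10. They are those of RefSeq in GRCh38.p14 at chr3:52685914-52686163 on the minus strand, written 5′ to 3′ with each CG dinucleotide in capitals. This build is newer than the one the reads were aligned to and serves for the sequence only.
PBRM1: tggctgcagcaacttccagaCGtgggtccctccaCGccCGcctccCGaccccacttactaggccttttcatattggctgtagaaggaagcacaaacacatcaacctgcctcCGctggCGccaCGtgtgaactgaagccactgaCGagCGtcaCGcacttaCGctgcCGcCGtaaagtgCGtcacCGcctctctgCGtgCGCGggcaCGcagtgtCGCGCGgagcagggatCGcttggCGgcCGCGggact
The stretch held 26 CG dinucleotides and 63.6% G or C. Of 35116 upstream windows of the same length, 19.6% held as many, and their median was 11. The 250 bases upstream of the inner start, which lie within the gene, held 40 CG dinucleotides and 83.6% G or C, and 2.16% of windows held as many. DNA methylation was not analysed here.

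BAP1 had its lowest level in the same extrahepatic line as PBRM1. TFK-1 had 242 counts and 17.1 CPM with an interval of 15.1 to 19.4 CPM, the median was 73.7 CPM, and the highest line was SNU-308. The next line above TFK-1 was TKKK with 46.5 CPM. TFK-1 thus stood at 23.2% of the median, and without it the standard deviation of BAP1 fell to 0.43, against 0.66 with it. TFK-1 was the deepest library, and its levels of ARID2 and ARID1B were the highest of the 20 lines.

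BAP1 and PBRM1 lie near each other on chromosome 3, with 5 measured genes between them, and the levels of these were uneven in TFK-1. NISCH had 38.5 CPM in TFK-1 against a median of 104.8 CPM, the lowest of the 20 lines, and NT5DC2 stood at 46.2% of its median. PHF7, TNNC1 and UQCC5 stood at 69.2%, 106.5% and 76.3% of theirs. Next to PBRM1 the nucleolar gene GNL3 stood at 116.7% of its median, while GLT8D1 beyond it was at 43.3% and lowest of the 20 lines. Of the 50 measured genes nearest to BAP1, 36 lay below their median in TFK-1, 13 lay below 50% of it, and 6 were lowest in TFK-1, namely HEMK1, PPM1M, NISCH, PBRM1, GLT8D1 and CCDC66. The median ratio over these 50 genes was 0.79, the third lowest of the 20 lines, and over 100 measured genes on each side it was 0.96. The low genes in TFK-1 were therefore interspersed with genes at their usual level, unlike the run around ARID2 in SNU-308.

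SNU-1079 and TGBC18TKB had low PBRM1 without low BAP1. BAP1 stood at 106.4% of its median in SNU-1079 and at 83.5% in TGBC18TKB. The 50 measured genes nearest to PBRM1 had a median ratio of 0.96 in SNU-1079 and 0.87 in TGBC18TKB, against 0.89 in TFK-1.

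**Figure D3:**
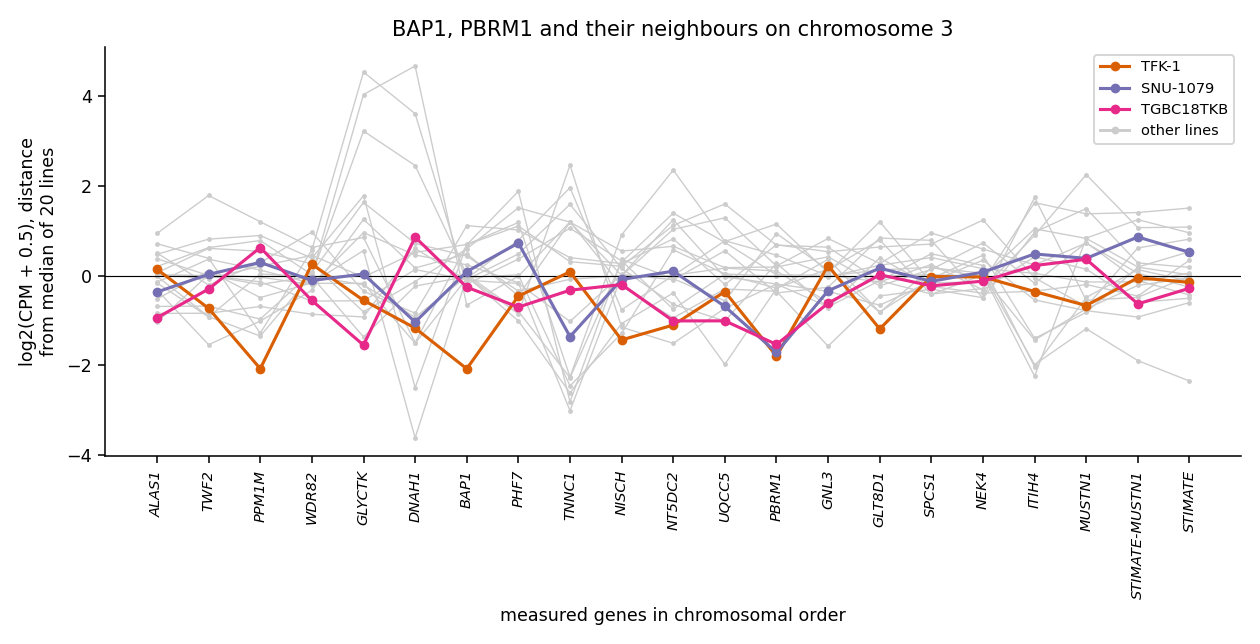
Distance from the median of the 20 lines in log2(CPM + 0.5) for the measured genes around BAP1 and PBRM1 in their order on chromosome 3, with TFK-1, SNU-1079 and TGBC18TKB drawn against the other lines. BAP1 is low in TFK-1 alone, PBRM1 is low in all 3 lines, and the genes between them do not share 1 level.

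Partner genes of BAP1 were measured in TFK-1 too. ASXL1, a cofactor of the deubiquitinase, stood at 98.6% of its median, and its paralogue ASXL2 at 299.4%, the highest of the 20 lines. OGT, a glycosyltransferase that binds BAP1 complexes, had 148.4 CPM in TFK-1 against a median of 460.6 CPM. The transcription factors FOXK1 and FOXK2 stood at 89.2% and 100.7% of their medians. Over all 50 partners with a median of at least 5 CPM, 45 lay within 1 log2 unit of their medians in TFK-1. SMARCD3 and OGT lay lower and ASXL2, MBD5 and IDH1 higher. Here too the share over all genes is not given.

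The ATPase SMARCA4 was well expressed in every line, and SMARCA2 varied more. SMARCA4 ran from 102.5 CPM in TKKK over a median of 165.2 CPM to 424.2 CPM in NOZ. SMARCA2 ran from 23.0 CPM in SNU-478 over a median of 45.2 CPM to 114.6 CPM in OCUG-1, with Sk-ChA-1 at 113.5 CPM and HuH28 at 102.2 CPM close below it. No line was far below the median of either ATPase, so none lacked SMARCA4 or SMARCA2 mRNA. Per kilobase, SMARCA2 was lower than SMARCA4 in all 20 lines, with a median of 7.84 CPM per kb for SMARCA2 and 29.2 CPM per kb for SMARCA4. The ratio of SMARCA2 to SMARCA4 was lowest in SNU-478 with 0.092, had a median of 0.30 and was highest in Sk-ChA-1 with 0.67. Their log2 levels had r = 0.35 and rho = 0.40 over the 20 lines, and r = 0.32 without the pair of lines farthest from the median of SMARCA2.

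High SMARCA4 in NOZ came with high levels of the genes around it. The 50 measured genes nearest to SMARCA4 on chromosome 19 had a median ratio of 1.82 in NOZ, the highest of the 20 lines. Close to SMARCA4, the arginine methyltransferase gene CARM1 stood at 230.7% of its median. High SMARCA2 was not matched to the same degree by its 30 nearest measured genes on chromosome 9. Their median ratio was 1.06 in OCUG-1, 1.12 in Sk-ChA-1 and 1.01 in HuH28. The 10 nearest alone had a median log2 distance of 0.43 in OCUG-1, 0.03 in Sk-ChA-1 and 0.23 in HuH28. SMARCA2 itself lay 1.33, 1.32 and 1.17 above its median in these lines.

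SMARCB1, the core subunit whose loss defines rhabdoid tumours, was the most even of the 10 genes. It ran from 53.2 CPM in HuH28 over a median of 72.3 CPM to 122.9 CPM in G415. Its standard deviation of 0.35 was at percentile 1.8 of all genes with a median of at least 5 CPM. No line came near a loss of SMARCB1 mRNA.

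KMT2C ran from 40.3 CPM in OZ over a median of 84.6 CPM to 237.5 CPM in TKKK. At both ends the neighbourhood on chromosome 7 moved the same way. KMT2C lies close to the end of its chromosome, and the 45 measured genes nearest to it had a median ratio of 1.43 in TKKK, the highest of the 20 lines, and 0.60 in OZ, the lowest. GALNT11, next to it, stood at 253.3% of its median in TKKK and at 59.9% in OZ. LINC01003, on the other side, had 76.4 CPM in TKKK against a median of 5.67 CPM. Near-identical copies of parts of KMT2C exist elsewhere in the genome and the strand setting is not given, so the level of this gene is less certain than that of the others.

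KDM6A had a low median of 28.6 CPM and 3 lines well above the rest. TGBC14TKB had 104.4 CPM, HuH28 103.3 CPM and Mz-ChA-2 75.2 CPM, while the next line, SNU-869, had 42.6 CPM and the lowest, SNU-1079, 15.4 CPM. The 3 high lines came from a primary gallbladder tumour, a primary intrahepatic tumour and a liver metastasis of a gallbladder tumour. The nearest 50 measured genes on the X chromosome stood at median ratios of 0.98, 1.13 and 1.14 in TGBC14TKB, HuH28 and Mz-ChA-2, so the neighbours were not raised to the same degree.

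Across the lines, several of the 10 genes followed their chromosomal neighbours. The log2 level was set against the median distance of the 10 nearest measured genes in each line. SMARCB1 with r = 0.07 and KDM6A with r = 0.05 followed their neighbours least, and ARID1A with r = 0.70, SMARCA4 with 0.66 and KMT2C with 0.66 most, over all 20 lines. Values between these were 0.58 for BAP1, 0.55 for ARID2, 0.52 for PBRM1, 0.46 for ARID1B and 0.36 for SMARCA2. Over 11420 genes the median of the same measure was 0.46, with quartiles of 0.26 and 0.63. The order changed without the pair of lines whose neighbour value lay farthest from its median over the lines. These were not always the lines farthest out for the gene itself. BAP1 was then highest at 0.61, with KMT2C at 0.60, SMARCA4 at 0.59, ARID2 at 0.51 and ARID1A at 0.51. KDM6A at 0.14 and SMARCB1 at 0.06 were again lowest. The 10 genes thus spread around the usual value. Each r is a description over 20 lines that share the libraries and their scaling.

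**Figure D4:**
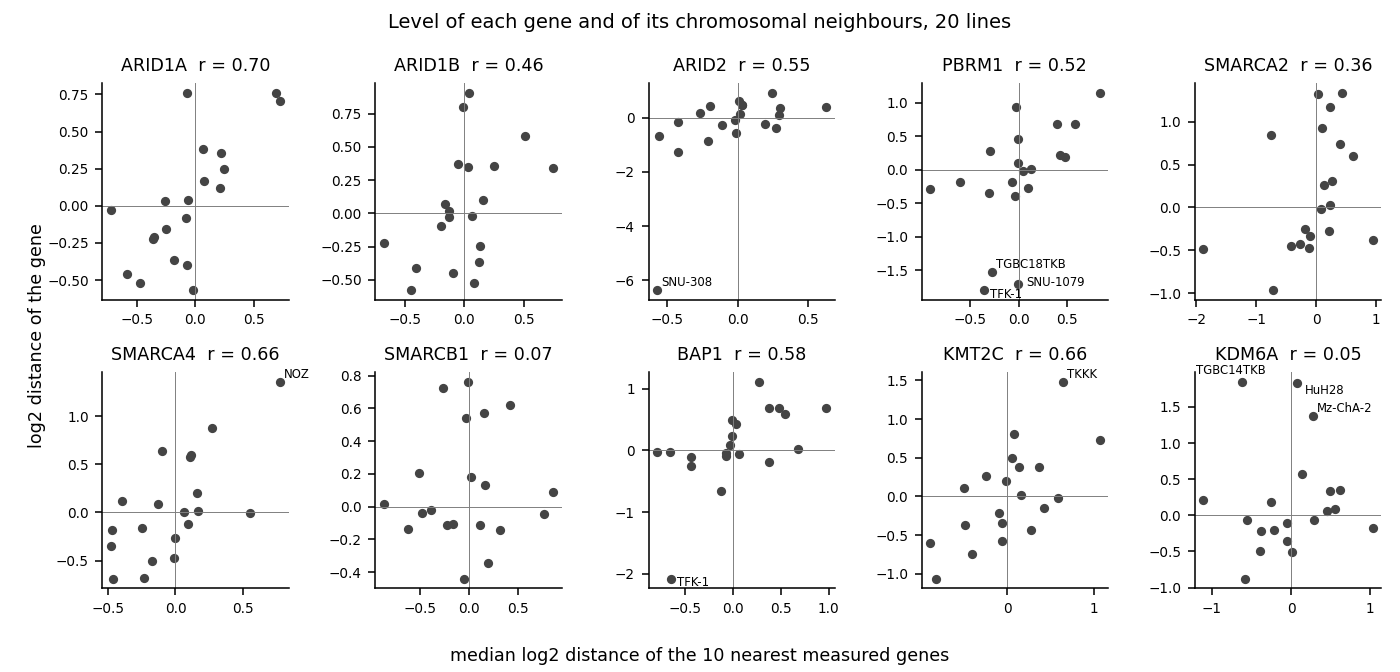
Distance of a gene from its median in each of the 20 lines (log2) against the median distance of its 10 nearest measured genes in the same line, 1 panel per gene and 1 point per line. SMARCA4 in NOZ and KMT2C in TKKK lie high on both axes, whereas KDM6A is high in HuH28 with neighbours at 0.08 and in TGBC14TKB with neighbours at -0.61.

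Among the 45 pairs of the 10 genes, PBRM1 and BAP1 had the highest correlation, with r = 0.73 and rho = 0.77 over the 20 lines, and r = 0.72 without the pair of lines farthest from the median of PBRM1. The lowest was r = -0.47 between ARID2 and BAP1. ARID2 and PBRM1, subunits of the same complex, had r = -0.38 and rho = -0.47. The median over the 45 pairs was 0.003, with 23 of them positive, while the median of the 10 genes with all other genes was 0.005. The list as a whole showed no shared level across the lines.

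The 3 genes most like each regulator, by Pearson r of log2 CPM over the 20 lines, often lay on the same chromosome. For ARID2 they were TWF1 (0.94), ANO6 (0.91) and LINC00938 (0.86), all of the run missing from SNU-308. Without SNU-308 these values fell to 0.41, 0.21 and 0.45. For SMARCA4 they included RAVER1 (0.84) and GET3 (0.82), both on chromosome 19. For BAP1 they were CCDC66 (0.84), CELSR3 (0.81) and NPRL2 (0.79), all on chromosome 3, and without TFK-1 these fell to 0.69, 0.54 and 0.37. For KMT2C, WDR37 (0.76), TOMM7 (0.76) and UBN2 (0.76) were nearest. ARID1A was nearest to UBR4 (0.79), ARID1B to PDIA3P1 (0.78), a copy of PDIA3 that can share its reads, PBRM1 to SETDB2 (0.73), SMARCA2 to TOPORS (0.80), SMARCB1 to CDC45 (0.77) and KDM6A to CCSAP (0.76).

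None of the 10 genes passed the test between anatomical sites. In the edgeR quasi-likelihood fit over 19 lines, the joint test of the 4 sites gave the 10 genes Benjamini-Hochberg adjusted p-values of 0.81 to 0.96, with 0 called. The background was 0.00602% of 16615 genes, a single gene. None of the 10 had an unadjusted p under 0.05, against 1771 genes or 10.7% of all. DESeq2 called 0 of the 10, against 312 genes or 1.88% of all.

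Intrahepatic and extrahepatic lines were compared directly because these bile duct cancers are often treated as separate diseases. PBRM1 had 16.8, 44.0, 77.2 and 125.1 CPM in the intrahepatic lines and 15.9, 46.2, 60.3, 64.3 and 68.0 CPM in the extrahepatic lines. The ranges overlapped throughout, and the log2 fold change was 0.38 with a standard error of 0.51 (edgeR adjusted p = 0.88). BAP1 averaged 82.9 ± 29.95 CPM in the 4 intrahepatic lines and 66.6 ± 33.5 CPM in the 5 extrahepatic lines (SD), a log2 fold change of 0.34 with a standard error of 0.41 (edgeR adjusted p = 0.87). KDM6A had the largest difference, 46.1 ± 39.1 CPM in intrahepatic lines and 28.8 ± 5.89 CPM in extrahepatic lines (SD), with a log2 fold change of 0.70 and a standard error of 0.55 (edgeR adjusted p = 0.76). That value rested on HuH28, without which it was -0.09. The smallest adjusted p was that of SMARCA4, 0.74 with edgeR, at a log2 fold change of 0.52 and a standard error of 0.38. Of the 10 genes 0 were called by edgeR and 0 by DESeq2, and 0 had an unadjusted p under 0.05. The background was 0% of 16615 genes, of which 1562 (9.4%) had an unadjusted p under 0.05 and 286 (1.72%) were called by DESeq2. The median log2 fold change was 0.18 over the 10 genes and 0.03 over all genes tested.

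By origin, SMARCB1 had the smallest p of the 10. SMARCB1 averaged 93.4 ± 23.9 CPM in the 7 metastatic lines and 73.9 ± 16.4 CPM in the 13 primary lines (SD). The lowest, median and highest values were 67.2, 83.5 and 122.9 CPM in metastatic lines and 53.2, 70.2 and 107.8 CPM in primary lines, so the groups overlapped over most of their range. The log2 fold change was 0.33 with a standard error of 0.17 (edgeR adjusted p = 0.68). SMARCA2 had a log2 fold change of 0.48 with a standard error of 0.31 (edgeR adjusted p = 0.75), with averages of 70.4 ± 34.15 CPM in metastatic and 49.99 ± 24.3 CPM in primary lines (SD). Of the 10 genes 0 were called by edgeR and 0 by DESeq2, and 0 had an unadjusted p under 0.05, against a background of 0% of 14843 genes, of which 1147 (7.73%) had an unadjusted p under 0.05 and 181 (1.22%) were called by DESeq2. The repository that supplied each line was the only batch the labels gave. As a covariate it had DSMZ and Zurich Uni., with 2 lines each, merged into a single level. Within that level the DSMZ lines were primary and the Zurich Uni. lines metastatic, and the lines from the KCLB repository were all primary. Origin and repository are therefore partly confounded. With this covariate the difference in SMARCA2 turned to -0.19, and 0 of the 10 were called. In that edgeR fit 1 of the 10 had an unadjusted p under 0.05, against 778 of 14843 genes.

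The lines also differ along an axis from epithelial to mesenchymal expression, scored as the mean log2 CPM of 18 epithelial genes minus that of 18 mesenchymal genes. SMARCA4 had a slope of -0.05 log2 CPM per unit of score (r = -0.48), with an unadjusted p of 0.035 and an adjusted p of 0.20 in limma, which does not pass. For the other 9 genes the limma adjusted p was 0.38 or more. The background of this comparison was 6.63% of 11961 genes, and 0 of the 10 were called. An unadjusted p under 0.05 was found for 1 of the 10, against 21% of all genes.

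**Figure D5:**
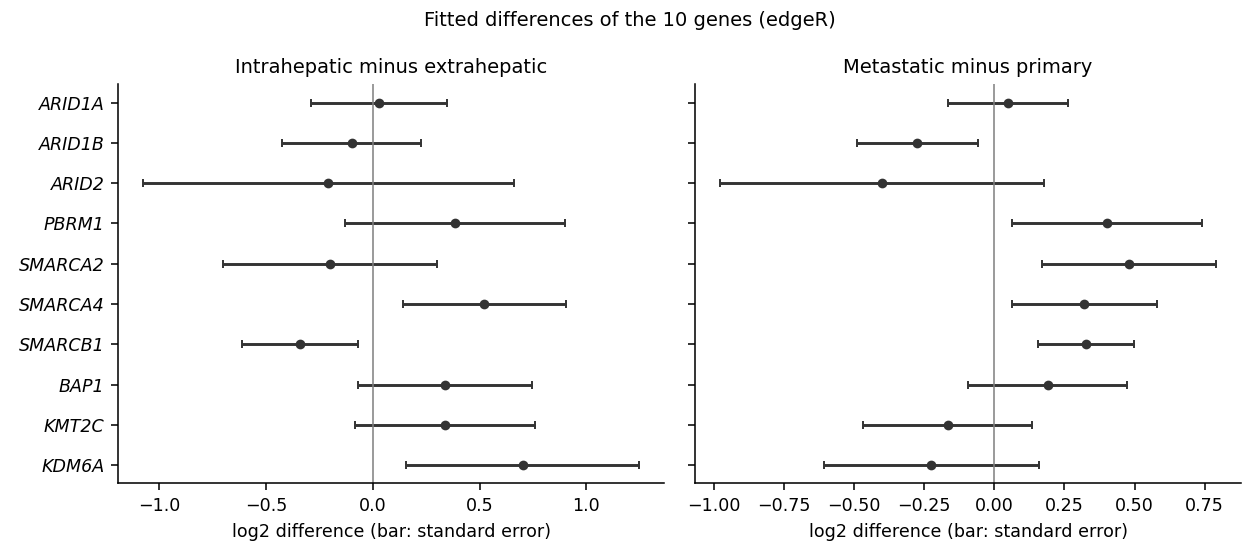
Log2 fold changes with standard errors of the 10 genes in intrahepatic against extrahepatic lines on the left and metastatic against primary lines on the right, from edgeR. No gene passes an adjusted p of 0.05 in either panel.

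A wider list of 58 partner genes of these complexes was read alongside, of which 56 were analysed and 50 had a median of at least 5 CPM. Of 54 that could be tested between sites and by origin, edgeR called 0 in each of those 3 comparisons, where 4, 2 and 4 had an unadjusted p under 0.05 for the sites jointly, intrahepatic against extrahepatic and metastatic against primary lines. Over all genes the shares with such a p were 10.7%, 9.4% and 7.73%. DESeq2 called 3 for the sites jointly (SMARCD2, ASH2L and DPF3), 0 between bile duct sites and 1 by origin (BCL11A), against 1.88%, 1.72% and 1.22% of all genes. On the epithelial minus mesenchymal score 2 of 50 were called by limma, against the background of 6.63%. ASXL1 fell with the score (slope -0.09, r = -0.78, adjusted p = 0.0064), with 399.3 CPM in the mesenchymal line HuH28 and 88.0 CPM in SNU-308 at the ends of its range. ATRX, a remodeller of heterochromatin, also fell with the score (slope -0.08, r = -0.63, adjusted p = 0.048), and was likewise highest in HuH28, with 335.4 CPM. With repository as a covariate ASXL1 alone was called.

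Lines far below the median by the rule above were present for 4 of the 50 partners, against 13% of all genes. The SWI/SNF subunits made up 18 of the 50 partners and 3 of these 4. DPF2, a BAF subunit with plant homeodomain fingers, had 7 counts or 0.581 CPM in OZ against a median of 59.8 CPM, with 27.7 CPM in the lowest other line. The 50 measured genes nearest to DPF2 had a median ratio of 0.98 in OZ. BCL7A had 25 counts or 1.96 CPM in NOZ against a median of 19.5 CPM. BCL7B was lowest in Mz-ChA-2 with 13.5 CPM against a median of 59.8 CPM, and TGBC2TKB was also far below. The DNA methyltransferase gene DNMT3A had 4.71 CPM in HuH28 against a median of 31.8 CPM. Among all listed partners SMARCC2 varied least, with a standard deviation of 0.33, and BCL11A most, with 1.72.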

How the data were processed

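The deposited table holds raw read counts per RefSeq entry in whole numbers. Per the submitters' processing notes, Trimmomatic, TopHat2 2.0.8, Picard 1.69 and featureCounts were used with hg19/GRCh37. Per the labels the kit was stranded; annotation release and strand setting of the counting: not given in the sources used here. Of 24222 entries, 23512 were named from RefSeq and 369 from GENCODE, and 341 without a symbol held 0.479% of counts. RefSeq GRCh38.p14 gave gene order and the printed sequence only. Transcript lengths came from GENCODE transcripts.

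Sites (19 lines) and origin (20 lines) were compared by quasi-likelihood F tests of edgeR 4.0.16 under R 4.3.3, robust and two-sided, after filterByExpr and TMM scaling, and the score with limma 3.58.1, each over all genes, at a Benjamini-Hochberg adjusted p of 0.05. The fits were tested on simulated data with 200 changed genes. DESeq2 1.42.0, RLE scaling, other filters, repository as a covariate (DSMZ and Zurich Uni. merged) and each line left out were alternatives. Named genes are the 10, the genes around those with a far-low line, the 3 most similar genes each, and partners that were called, far low, or of extreme spread; other neighbours and partner values were picked after seeing the values. The members and lists were chosen with earlier results of these data known. BRD9 and EED were not analysed here, and some genes that met the rule are not reported here. No column was left unused.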

Additional observations from a re-analysis of the deposited data

Results flagged for a closer look

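Each of the 10 genes was read in the gallbladder, extrahepatic, intrahepatic and metastatic lines, 40 groups of 4 to 7 lines in all, and 2 of these held a line whose distance to its nearest neighbour took up more of the group's range than a Dixon test at 95% allows. Chance alone flags about 1 in 20 groups, so 2 of 40 is the share that chance alone gives. The values are also those already searched for far-low lines, so the flags add no separate support. Gaps and ranges were taken in log2(CPM + 0.5), the scale of the far-low rule. The ratios below therefore do not follow from the CPM values printed with them, and the flags hold for the log2 scale only. ARID2 in SNU-308, at 0 CPM, stood apart from the other 6 gallbladder lines, of which the nearest was OCUG-1 with 24.9 CPM; the gap was 0.84 of the range, with a limit of 0.568. PBRM1 in TFK-1, at 15.9 CPM, stood apart from the other 4 extrahepatic lines, of which the nearest was SNU-245 with 46.2 CPM; the gap was 0.73 of the range, with a limit of 0.71. BAP1 in TFK-1 fell just short of the same limit among the extrahepatic lines, so the 2 genes hardly differ in this respect.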

How the results depend on the processing

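None of the 10 genes was called in any of the 4 comparisons under any alternative, and their lowest adjusted p over alternatives was 0.69 for the 4 sites jointly, 0.54 for intrahepatic against extrahepatic, 0.42 for metastatic against primary and 0.11 for the score. Counts over all genes moved: DESeq2 called 312 genes for the sites jointly, 286 for intrahepatic against extrahepatic and 181 by origin, where edgeR called 1, 0 and 0. With repository as a covariate the sites gave 0. Leaving out 1 line gave 0 to 2 for the sites, 0 to 1 for intrahepatic against extrahepatic, 0 to 1 by origin and 370 to 753 for the score (370 without HuH28, 522 without SNU-245), where the full fit called 793. The score called 1563 genes with no filter, 503 with repository and 494 without SNU-308, TFK-1, SNU-1079 and TGBC18TKB, an alternative chosen after seeing the data. The cause was not tested. With repository as a covariate the sign turned for SMARCA2 (-0.19) and KMT2C (0.047) by origin and for SMARCA2 (0.0061), SMARCB1 (-0.0018) and KMT2C (-0.0077) on the score; without those 4 lines it turned for ARID1B between bile duct sites (0.27). Leaving out 1 line turned intrahepatic against extrahepatic values of ARID1A (-0.094 to 0.14), ARID1B (-0.48 to 0.13), PBRM1 (-0.14 to 0.70), SMARCA2 (-0.75 to 0.12), KMT2C (-0.42 to 0.61) and KDM6A (-0.087 to 0.99), origin values of ARID1A (-0.10 to 0.14) and KMT2C (-0.32 to 0.022), and slopes of ARID1B (-0.015 to 0.031), SMARCB1 (-0.016 to 0.014), KMT2C (-0.0076 to 0.023) and KDM6A (-0.051 to 0.033). At 3 log2 units far-low lines were found for 1 of the 10 genes, against 9.08% of all genes, so this count too stands near the background. Over all genes the main rule found 1507 with such a line. The rule at 1 log2 unit found 2289, and the rule without the spread criterion 3414. No paired analysis was possible because each library came from a different line.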
